A study of Homo sapiens with 10 samples.

Results

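Genes of disulfide bond formation in the endoplasmic reticulum (ER), 10 in number, were followed in HepG2 cells, a human hepatoma line, with and without ER stress. They were taken by name from a table of 32738 genes. The set comprised the protein disulfide isomerases P4HB, PDIA3, PDIA4, PDIA5 and PDIA6, the related thioredoxin-domain proteins ERP44, TXNDC5 and TXNDC11, and the ER oxidases ERO1L and ERO1LB, older symbols that the table uses for ERO1A and ERO1B. Both groups were HepG2 cells in the same serum-containing medium. The tunicamycin group received 2 µg/ml of the drug for 17 h, and the untreated group received the regular medium without it over the same period, although the series text calls these controls mock treated. Whether the drug's solvent was added to the control medium is not given in the sources used here. Each group held 5 libraries from experiments on separate days, and all came from the same hepatoma line, which limits the model to it.

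Protein disulfide isomerases are enzymes of the ER lumen built from thioredoxin-like domains, and they make, break and rearrange the disulfide bonds of secreted and membrane proteins. An isomerase that has passed its own disulfide to a client is oxidised again by an ERO1 oxidase, which hands the electrons to oxygen and leaves hydrogen peroxide. Liver cells depend on this cycle because albumin and many other plasma proteins carry disulfides. Tunicamycin blocks N-linked glycosylation, so that glycoproteins misfold in the ER and the unfolded protein response switches on genes of chaperones and folding enzymes.

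Libraries were prepared from the 3′ ends of mRNAs, so that a transcript gives about 1 fragment whatever its length. Counts of different genes were therefore set side by side without division by length. Such comparisons also rest on how reads from shared or overlapping transcript ends were counted, which was not tested. Library totals ranged from 4242538 to 4888292 counts in untreated cells and from 2234682 to 5029864 in treated cells, with the lowest total in tunicamycin replicate 5. All 9 hepatocyte and hepatoma markers were detected in both groups, with summed levels of 65300 to 84000 normalized counts untreated and 52200 to 58700 treated. Mean levels were lower with tunicamycin for APOB (32600 untreated, 19000 treated), APOA1 (8970 and 4780), AFP, TF, FGB and TTR. They were higher for ALB (11200 and 11500), SERPINA1 (1560 and 1650) and HNF4A (433 and 518). Of 3 leukocyte markers only CD68 had counts, at 16.6 to 35.3 normalized counts untreated and 10.1 to 26.1 treated, while the defining genes PTPRC and CD3E were at 0. The endothelial gene VWF held 1 count in all libraries, and CDH5 held 18, all of them in tunicamycin replicate 4. That library also had the highest mitochondrial share of counts, 28.79% against 18.28 to 25.15% in the other libraries, and the 8 increases given here were called without it too. Of 4 fibroblast markers COL1A1 held 5, COL3A1 held 2 and COL1A2 and DCN held none. The part of the lower hepatocyte marker sum in the results given here was not tested. HSPA5, the ER chaperone BiP, had 8445 ± 559 normalized counts in untreated libraries and 66200 ± 4410 in treated ones (SD, n = 5 per group), and DDIT3, the stress-induced transcription factor CHOP, had a log2 fold change of 1.42 (adjusted p = 2.1e-08, edgeR's quasi-likelihood test). A normalized count is a count divided by its library's scaled size and multiplied by the mean of those sizes.

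Tunicamycin raised the transcripts of most isomerases and of the oxidase ERO1LB, by very different amounts. Of the 10 genes, 9 passed the filter on low counts, and 8 of these rose (edgeR's quasi-likelihood test, threshold 0.05 on the adjusted p), against 17.6% of all 12733 tested genes. None was lower, against 16.6% of all tested genes, and none was lower at an unadjusted p under 0.05 or in DESeq2. Among all called genes 51.4% were higher, and with library size as the only scaling 40.8% were. More than 2-fold increases were measured for 5 genes, PDIA3, PDIA4, PDIA6, ERP44 and ERO1LB, against 5.09% of tested genes. In 8 genes every treated library lay above every untreated library, which held for 11.7% of all tested genes. The median log2 fold change over the 9 genes was 1.01, beside -0.00335 over all tested genes. In bulk RNA, fewer cells of a type and less RNA per cell cannot be told apart.

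**Figure D1:**
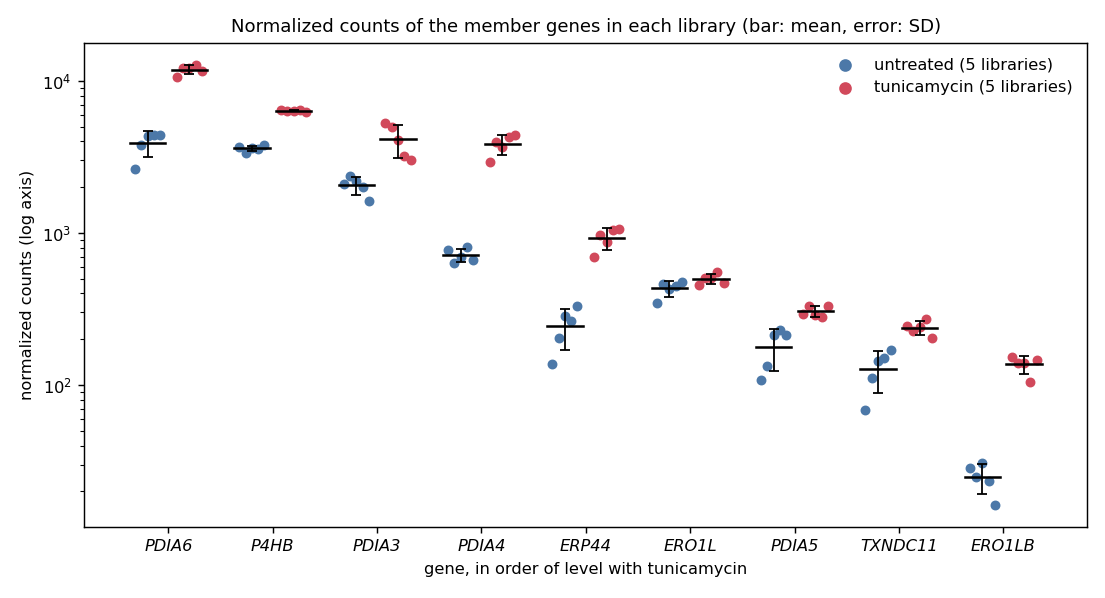
Normalized counts (log axis) of the 9 tested genes in each library, untreated in blue and tunicamycin in red, with replicates 1 to 5 from left to right, the mean as a bar and the SD as an error bar. The 2 colours are separate for every gene but ERO1L, whose groups overlap.

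Promoter sequences of RefSeq (GRCh38.p14, from 250 bases before to 50 after each transcription start) were found for 9 of the 10 genes, in 12 windows, with no entry for PDIA3. They were searched on both strands for the letters of the elements through which ATF6 and XBP1 are known to act. The ER stress element, which joins CCAAT to CCACG across 9 bases, was present in 27 of 35116 windows of this length, or 0.0769%, and in a window each of PDIA6 and ERO1LB. The other PDIA6 window, chr2:10832436-10832735, held neither CCAAT nor CCACG. The stretches are shown because PDIA6 and ERO1LB are among the 5 genes that rose more than 2-fold. Capitals mark the element, which runs on the gene's own strand in PDIA6 and on the other strand in ERO1LB. The PDIA6 stretch is chr2:10812833-10812891 on the minus strand, 106 to 48 bases before the start of the transcript at that window, and the ERO1LB stretch is chr1:236282163-236282208 on the minus strand, 250 to 205 bases before the start.
PDIA6: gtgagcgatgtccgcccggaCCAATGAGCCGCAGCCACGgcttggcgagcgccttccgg
ERO1LB: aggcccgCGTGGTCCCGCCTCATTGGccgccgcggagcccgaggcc

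The unfolded protein response element TGACGTGG, which itself contains the CCACG core on its other strand, was present in 256 windows, or 0.729%, among them a window each of TXNDC5 and TXNDC11. These are shown for comparison with each other, with the element in capitals and both stretches on the minus strand. That of TXNDC5 is chr6:7910142-7910189, 112 to 65 bases before the start of the transcript at that window. The other TXNDC5 window, chr6:7910739-7911038, lies at the gene's own 5′ end and did not hold this element. That of TXNDC11 is chr16:11742834-11742863, which begins 6 bases before the start and runs into the first exon.
TXNDC5: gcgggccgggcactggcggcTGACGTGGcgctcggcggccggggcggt
TXNDC11: ggcggcgcggcTGACGTGGagcgtccgggt

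The bare core CCACG was in 38.1% of all windows and in those of 6 of these genes, ERO1LB, PDIA4, PDIA5, PDIA6, TXNDC5 and TXNDC11. The second form of the ER stress element, which reads ATTGG, any base and CCACG (0.0541% of windows), and TGATGNAA, the core of the amino acid response element bound by ATF4 (3.62%), were in none of the 12. The ERO1L window held neither CCAAT nor CCACG. The P4HB window held 3 CCAAT and 0 CCACG, and the ERP44 window held 1 CCAAT and 0 CCACG. A match is a description of the letters in these windows only. PDIA4, whose log2 fold change was close to that of ERO1LB, had no ER stress element in its windows. ERP44, with a log2 fold change of 1.93, had none of the searched elements in its window.

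P4HB, the enzyme first called protein disulfide isomerase and also a subunit of prolyl 4-hydroxylase and of the microsomal triglyceride transfer complex, showed the most even response. The gene (ENSG00000185624) lies on the minus strand of chromosome 17 at chr17:81843159-81860856 (GRCh38) and has 11 exons. In replicates 1 to 5 of the untreated group it had 3680, 3370, 3640, 3580 and 3770 normalized counts, and with tunicamycin it had 6480, 6360, 6380, 6470 and 6260. The groups were far apart and the libraries of each lay close together, with means of 3608 ± 151.2 and 6389 ± 90.4 (SD, n = 5 each). The log2 fold change was 0.82 (SE 0.0738, adjusted p = 7.95e-08, edgeR's quasi-likelihood test), and within pairs of the same replicate number it ran only from 0.731 to 0.917.

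PDIA6, also called P5, is an isomerase that associates with BiP, and a promoter window of it holds the ER stress element shown above. It was the most abundant of the 9 tested genes in treated cells. It lies on the minus strand at chr2:10783391-10837977 and its canonical transcript has 13 exons. The untreated libraries 1 to 5 held 2640, 3770, 4320, 4430 and 4400 normalized counts, and the tunicamycin libraries held 10700, 12100, 12100, 12800 and 11700. Replicate 1 was the lowest in both groups, and no libraries overlapped between groups. The increase was 3.039-fold, or 1.60 on the log2 scale (SE 0.119, adjusted p = 6.17e-09, edgeR's quasi-likelihood test), with pairs from 1.41 to 2.02.

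PDIA4, known as ERp72, carries more thioredoxin-like active sites than P4HB and had the largest log2 fold change among the tested isomerases. The gene is at chr7:149003062-149028662, minus strand, with 10 exons. Without the drug, replicates 1 to 5 gave 771, 638, 694, 814 and 668 normalized counts, and the treated ones gave 2950, 3950, 3690, 4280 and 4420. The lowest treated library, replicate 1, still lay well above the highest untreated one. Its log2 fold change was 2.43 (SE 0.113, adjusted p = 7.75e-12, edgeR's quasi-likelihood test), a 5.373-fold increase with a 95% interval of 4.56 to 6.33.

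PDIA3, or ERp57, works with calnexin and calreticulin on glycoproteins and forms part of the peptide-loading complex of MHC class I. It lies on the plus strand at chr15:43746394-43773279, with 13 exons. Untreated replicates 1 to 5 held 2090, 2360, 2200, 2010 and 1620 normalized counts, and treated ones held 5330, 4970, 4120, 3220 and 3000. The treated libraries spread widely, with an SD of 1029 around a mean of 4128, and their lowest value was still above the highest untreated one. The log2 fold change of 1.01 (SE 0.142, adjusted p = 2.07e-05, edgeR's quasi-likelihood test) put PDIA3 at 2.012-fold, with a 95% interval of 1.64 to 2.47 that spans the 2-fold line.

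PDIA5, an isomerase also called PDIR, was far less abundant than P4HB. It is on the plus strand at chr3:123067025-123225227, with 17 exons. Its untreated values of 108, 133, 212, 230 and 213 normalized counts in replicates 1 to 5 were more scattered than its treated values of 293, 333, 290, 280 and 331. The groups did not overlap. The log2 fold change was 0.77 (SE 0.163, adjusted p = 0.00119, edgeR's quasi-likelihood test), and pairs ran from 0.283 to 1.43.

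ERP44 recycles between the Golgi and the ER and holds back proteins that lack a retrieval signal of their own, among them the ERO1 oxidases. It lies on the minus strand at chr9:99979185-100099052, with 12 exons. Untreated replicates 1 to 5 gave 138, 203, 285, 264 and 329 normalized counts and tunicamycin gave 695, 968, 870, 1050 and 1070. Replicate 1 was again lowest in both groups, and the groups did not overlap. The transcript rose 3.812-fold, a log2 fold change of 1.93 (SE 0.174, adjusted p = 8.71e-08, edgeR's quasi-likelihood test).

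TXNDC11, a membrane-bound thioredoxin-domain protein that acts with EDEM proteins in the disposal of misfolded glycoproteins, is at chr16:11679083-11742857 on the minus strand, with 12 exons. Its untreated level was 68, 111, 144, 150 and 169 normalized counts in replicates 1 to 5, and its treated level was 243, 226, 242, 273 and 204. All treated values exceeded all untreated values, though replicate 5 of each group brought them near. Its log2 fold change was 0.90 (SE 0.173, adjusted p = 0.000504, edgeR's quasi-likelihood test), with pairs from 0.272 to 1.83.

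TXNDC5, or ERp46, an isomerase with several thioredoxin-like domains, could not be measured. Its row held 7 counts over all 10 libraries, with 1 count in untreated replicate 4 and 4, 1 and 1 in tunicamycin replicates 1, 3 and 4, and it did not pass the filter. The gene lies at chr6:7881517-7910788 on the minus strand. The readthrough gene BLOC1S5-TXNDC5, which joins it to the gene next to it, covers 99% of the last 500 bases of the TXNDC5 transcript on the same strand with identical sequence, and it had 0 counts in every library. Reads from these bases fit both genes, and beyond the pipeline's default settings the sources used here do not say how such reads were counted, so these counts give no level for TXNDC5.

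The 2 ER oxidases responded differently. ERO1L, the widely expressed form that is also induced by hypoxia, lies on the minus strand at chr14:52639915-52695900 and has 16 exons. Its normalized counts were 347, 459, 427, 451 and 475 in untreated replicates 1 to 5 and 454, 503, 508, 551 and 470 with tunicamycin. The groups overlapped, since treated replicates 1 and 5 fell within the untreated range. The log2 fold change was 0.20 (SE 0.0965), with a 95% interval of 0.00291 to 0.407, and 4 of 5 pairs were higher. It did not pass the threshold in edgeR's quasi-likelihood test (adjusted p = 0.11, unadjusted p = 0.0471), in the same test with the replicate block (adjusted p = 0.0541) or in DESeq2 (adjusted p = 0.116). The interval covers increases of up to 1.33-fold.

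ERO1LB, the form best known from the pancreas and the other gene of the set with an ER stress element in its window, lies on the minus strand at chr1:236214681-236282019, with 16 exons as well. It was the least abundant tested gene of the set, with untreated levels in replicates 1 to 5 of 28.4, 25, 30.6, 23.3 and 16.3 normalized counts, and it reached 154, 139, 139, 104 and 147 with tunicamycin. The lowest treated library lay above 3 times the highest untreated one. The log2 fold change was 2.45 (SE 0.17, adjusted p = 2.44e-09, edgeR's quasi-likelihood test), a 5.482-fold increase with a 95% interval of 4.28 to 7.02, close in size to that of PDIA4. Only 756 counts over 10 libraries stand behind this gene.

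The difference between the oxidases was tested directly. ERO1L gave 12.2, 18.4, 13.9, 19.3 and 29.2 counts per ERO1LB count in untreated replicates 1 to 5 and 2.96, 3.62, 3.66, 5.28 and 3.19 with tunicamycin. The ratio was lower in every treated library than in any untreated one, and ERO1L remained the more abundant transcript throughout. On the log2 scale ERO1LB minus ERO1L went from -4.12 ± 0.478 to -1.87 ± 0.32 (SD, n = 5 each), a change of 2.25. An exact two-sided permutation test gave p = 0.00794, the smallest p that 5 against 5 libraries allow. It permuted libraries freely and did not use their pairing by replicate number. ERO1LB thus made up 5.53 ± 1.65% of ERO1 counts in untreated cells and 21.6 ± 3.56% in treated cells.

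**Figure D2:**
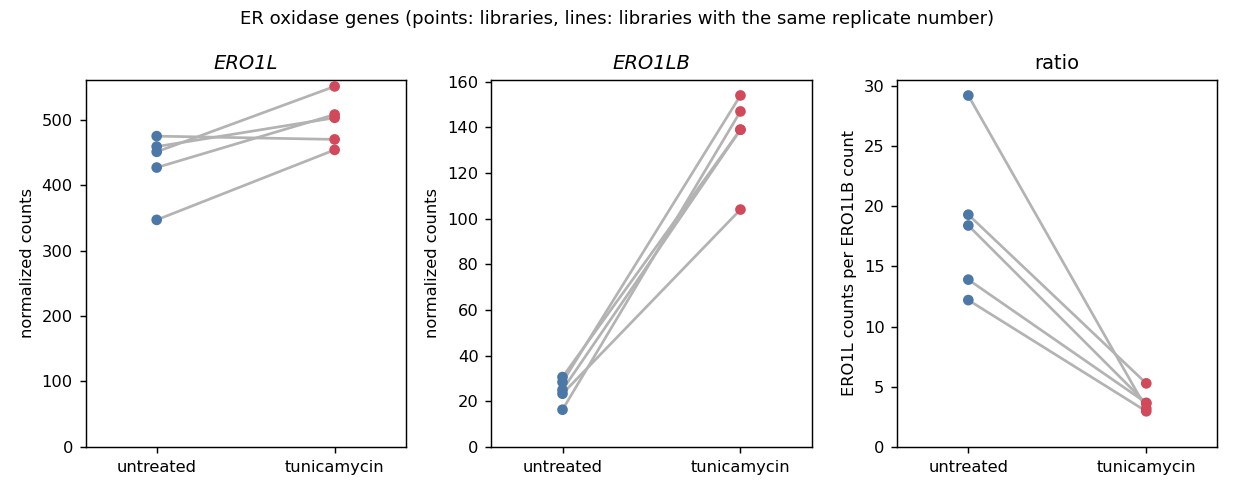
Normalized counts of ERO1L and of ERO1LB and the number of ERO1L counts per ERO1LB count, with a point for each library and lines that join libraries of the same replicate number. ERO1LB reaches 104 to 154 normalized counts in treated libraries from 16.3 to 30.6, while the 2 groups of ERO1L overlap.

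Gene by gene, the exact two-sided permutation test, again without the pairing, gave p = 0.00794, the smallest it can give, for each of the 8 higher genes, and p = 0.0476 for ERO1L. Among all tested genes, the log2 fold changes of ERO1LB, PDIA4, ERP44 and PDIA6 stood at percentiles 99.51, 99.47, 98.88 and 98.05. Those of PDIA3, TXNDC11, P4HB and PDIA5 stood between percentiles 90.05 and 93.98, and that of ERO1L at percentile 66.03.

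Because the genes rose by different amounts, the make-up of the set changed. Together they took 11300 ± 875 normalized counts in untreated libraries and 28400 ± 963 in treated libraries (SD, n = 5 per group), with ranges of 9876 to 11960 and 27280 to 29580. In untreated cells PDIA6 and P4HB overlapped in level, at 34.4 ± 4.46% and 32.1 ± 3.04% of the set's counts. In treated cells PDIA6 held 41.9 ± 1.88% and P4HB 22.5 ± 0.811%, and their ranges were apart. PDIA4 held 6.38 ± 0.917% untreated and 13.6 ± 1.96% treated, and PDIA3 held 18.3 ± 3.12% and 14.6 ± 3.72%, with overlapping ranges. For every P4HB count there were 0.199 ± 0.0197 PDIA4 counts in untreated and 0.604 ± 0.0961 in treated libraries. TXNDC5 could not be measured and entered the sums and shares above with 7 counts in all, so its part in the set is not known.

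**Figure D3:**
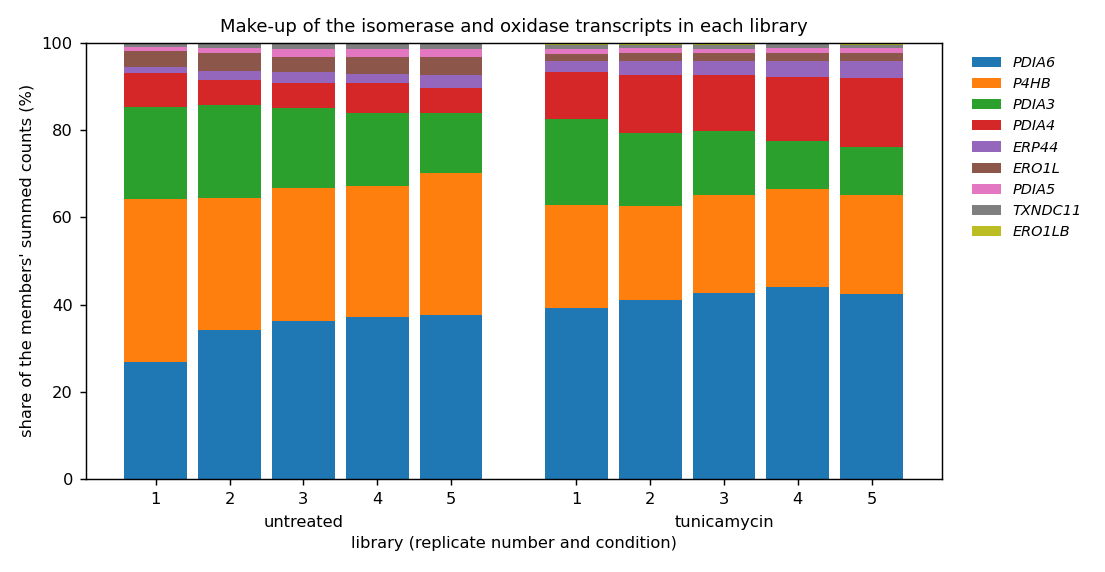
Share of each tested gene in the summed counts of the set (%), 1 bar for each library. Untreated replicates are on the left and tunicamycin replicates on the right. TXNDC5, which could not be measured, is not drawn. P4HB takes 30 to 37.3% of the untreated bars and 21.5 to 23.7% of the treated bars, and PDIA4 5.73 to 7.81% and 10.8 to 16%.

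The order of levels of the tested genes in untreated cells ran from PDIA6 and P4HB through PDIA3, PDIA4, ERO1L, ERP44, PDIA5 and TXNDC11 to ERO1LB. Neighbours whose libraries overlapped were PDIA6 and P4HB, ERP44 and PDIA5, and PDIA5 and TXNDC11. In treated cells the order was PDIA6, P4HB, PDIA3, PDIA4, ERP44, ERO1L, PDIA5, TXNDC11 and ERO1LB, and only PDIA3 and PDIA4 overlapped. ERP44 stood below ERO1L in every untreated library and above it in every treated library. The counts of the isomerases, ERP44 and the TXNDC genes per count of the ERO1 genes were 25.3, 21.8, 25.1, 24.2 and 22.7 in untreated replicates 1 to 5. With tunicamycin they were 43.9, 45.1, 42.8, 43.3 and 43.7, a narrow range that did not meet the untreated one. TXNDC5, which could not be measured, entered this ratio with 7 counts in all, so its part in it is not known.

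Other proteins of the PDI family included higher and lower genes. Of 13 relatives, 10 were tested, and 4 were higher, 2 lower and 4 not called in edgeR's quasi-likelihood test, beside 17.6% of all tested genes higher and 16.6% lower, with a median log2 fold change of 0.231. AGR2, a family member needed for the folding of mucins, rose from 6.03, 8.03, 3.5, 8.96 and 12.2 normalized counts in replicates 1 to 5 to 59.1, 59.5, 76.5, 74.2 and 94.8. Its log2 fold change of 3.21 (SE 0.256, adjusted p = 1.7e-08) exceeded that of any of the tested isomerases and oxidases above, from a level of few counts. DNAJC10, or ERdj5, the family's reductase that opens disulfides of proteins bound for degradation, rose from 812.1 ± 46.4 to 2592 ± 172.6 normalized counts (log2 fold change 1.67, adjusted p = 2.28e-11). The membrane-bound TMX3 (0.51, adjusted p = 0.0152) and TMX4 (0.37, adjusted p = 0.0124) were higher by less, and TMX3 lost its call without tunicamycin replicate 5 (0.389, adjusted p = 0.0516).

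TXNDC16, also called ERp90, fell from 56.31 ± 8.599 to 22.29 ± 8.114 normalized counts (log2 fold change -1.33, adjusted p = 0.000156, edgeR's quasi-likelihood test), and every treated library was below every untreated one. ERP27, which lacks a redox-active site and binds PDIA3, was lower as well (-1.94, adjusted p = 0.014), but it had 66 counts in all and a range of 6.24 to 15.2 normalized counts untreated and 0 to 8.24 treated. TMX1 was not called (0.36, adjusted p = 0.0568) but was higher in 5 of 5 pairs and was called with the replicate block (0.389, adjusted p = 0.00534). ERP29, TXNDC12 and TMX2 had log2 fold changes between -0.07 and 0.10 and did not pass the test. The testis form PDILT and AGR3 had no counts, and PDIA2 had 17 counts.

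Among enzymes that make disulfides or use up peroxide beside the ERO1 oxidases, PRDX4 and VKORC1L1 rose. Of 7 genes, 6 were tested, 2 were higher, beside 17.6% of all tested genes, and none was lower, beside 16.6%, in edgeR's quasi-likelihood test, at an unadjusted p under 0.05 or in DESeq2, with a median log2 fold change of 0.197. PRDX4, the ER peroxiredoxin that turns the peroxide made by ERO1 into further disulfides, had untreated levels of 414, 387, 409, 414 and 395 normalized counts in replicates 1 to 5 and treated levels of 507, 486, 541, 550 and 561. That is a small but even increase (log2 fold change 0.39, SE 0.0804, adjusted p = 0.000998). VKORC1L1, a relative of the vitamin K epoxide reductase, rose from 176.5 ± 29.07 to 294.4 ± 45.78 (0.74, adjusted p = 0.000209). GPX7, QSOX1, QSOX2 and VKORC1 lay between -0.002938 and 0.203 and were not called, and GPX8 had no counts.

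Partner proteins included CALR and CANX among the higher and TAPBP among the lower genes. Of 13 genes, 12 were tested, and 5 were higher, 3 lower and 4 not called in edgeR's quasi-likelihood test, beside 17.6% and 16.6% of all tested genes, with a median log2 fold change of 0.192. The lectin chaperones that bring glycoproteins to PDIA3 rose, CALR from 4877 ± 316.3 to 12960 ± 1318 normalized counts (log2 fold change 1.41, adjusted p = 6.39e-10) and CANX from 6993 ± 431.4 to 11050 ± 722.2 (0.66, adjusted p = 3.5e-06). TAPBP, tapasin, the partner of PDIA3 in the peptide-loading complex, fell from 406.9 ± 47.26 to 205.4 ± 11.9 (-0.98, adjusted p = 3.89e-07), and its groups did not overlap.

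EDEM2, the mannosidase that acts with TXNDC11, rose from 49.77 ± 12.18 to 146.3 ± 64.01 normalized counts (log2 fold change 1.52, adjusted p = 0.000105, edgeR's quasi-likelihood test). Of the clients and targets of ERP44, the calcium channel gene ITPR1 rose (1.07, adjusted p = 0.000523) and SUMF1, the sulfatase-modifying enzyme, fell (-0.60, adjusted p = 0.00298). Among the receptors that return proteins with a KDEL signal to the ER, KDELR2 rose (0.45, adjusted p = 0.00162), KDELR3 was not called (0.03), and KDELR1 was lower by a narrow margin (-0.22, adjusted p = 0.0405). The KDELR1 call was lost when untreated replicate 1, 2 or 5 or tunicamycin replicate 2, 4 or 5 was left out, with adjusted p from 0.0585 to 0.116.

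The subunits that join P4HB in other complexes did not pass the test. P4HA1 had 299.9 ± 62.08 normalized counts untreated and 317.1 ± 38.57 treated, P4HA2 had 73.83 ± 20.73 and 69.76 ± 21.08, and P4HA3 had no counts. MTTP, the partner of P4HB in the microsomal triglyceride transfer complex, had 127.1 ± 26.46 and 156.6 ± 17.31 (log2 fold change 0.30, adjusted p = 0.114 in edgeR's quasi-likelihood test). It was called with the replicate block in edgeR (0.321, adjusted p = 0.0385) but not in DESeq2 with the same block (0.322, adjusted p = 0.104).

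**Figure D4:**
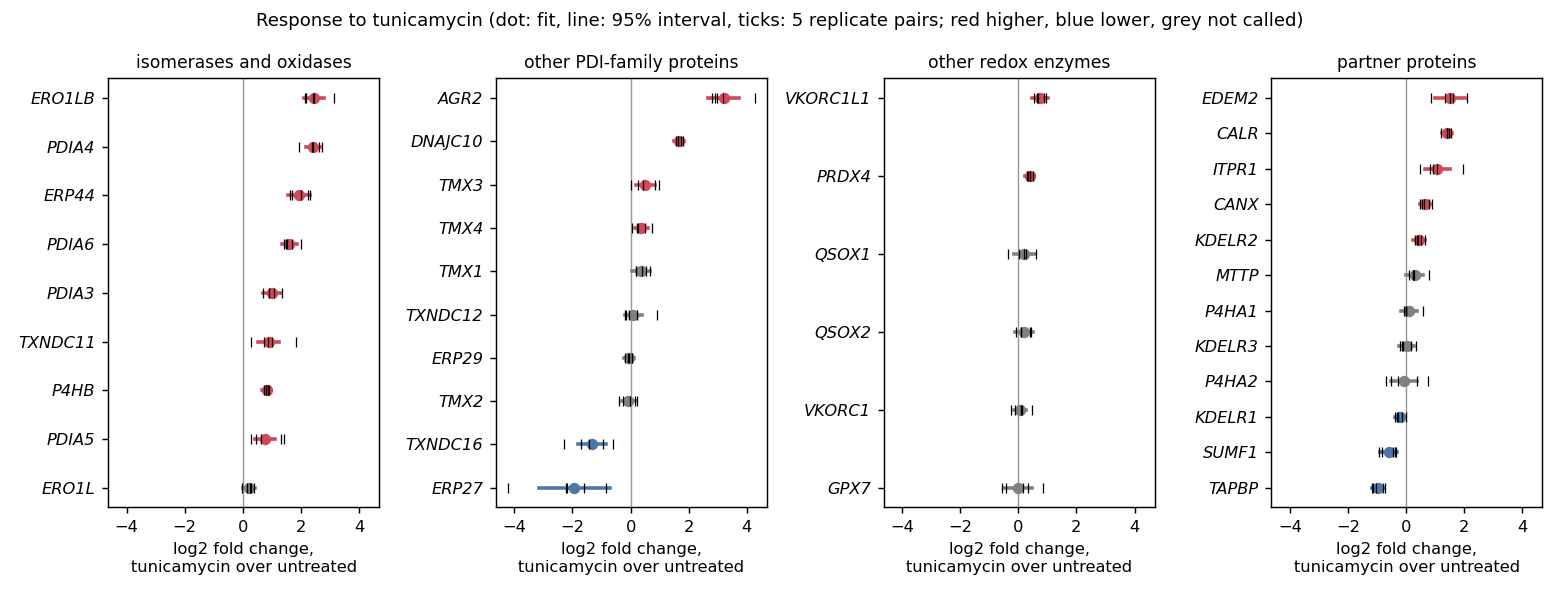
Log2 fold changes of tunicamycin over untreated with 95% intervals for the tested genes of the set and of the 3 related lists, with ticks for the 5 replicate pairs. Higher genes are red, lower blue and those not called grey: the left panel holds 8 red genes and ERO1L in grey, while the family relatives and the partners hold genes of both directions.

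Across the 10 libraries, the mean of the 9 genes (log2 normalized counts, each centred on its own mean) was followed most closely by PDIA6 (Pearson's r 0.995) and P4HB (0.98) and least by PDIA3 (0.8559) and ERO1L (0.7069). Of 9698 other tested genes whose mean was 20 or more normalized counts, the 5 most like that mean were HSP90B1 (0.9961), NFE2L1 (0.9961), ACTR3 (0.9957), VIMP (0.995) and SLC33A1 (0.9937), and 267 had an r over 0.95. These values are descriptive, since all libraries of a treatment share it and fall into 2 clusters. HSP90B1 encodes the ER chaperone GRP94. Its transcript rose from 5078 to 33550 normalized counts on average (log2 fold change 2.72), more than any tested gene of the set.

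Libraries differed in ways that touched several of these genes at the same time. Untreated replicate 1 was the lowest of its group for PDIA5, PDIA6, ERP44, TXNDC11 and ERO1L. Tunicamycin replicate 1 was the lowest for PDIA4, PDIA6, ERP44 and ERO1L and the highest for P4HB, PDIA3 and ERO1LB. Each of the 8 calls held when any library was left out.

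Exons of other genes overlap the ends of some transcripts in GENCODE 44 (GRCh38). The counts were made on hg19 with Ensembl release 87, in which overlaps were not examined. Beyond the pipeline's default settings the sources used here do not say whether counting used the strand. On the opposite strand ATP6V1C2 covers 100% of the last 500 bases of PDIA6, ELL3 and ENSG00000262560 cover 89.6% and 89% of those of PDIA3, and ENSG00000262831 covers 47% of those of P4HB, and these genes had 0 counts in every library. SNN, with 12 to 25 counts a library, covers 14% of those of TXNDC11, and BMP6, with 0 counts in every library, covers 42.4% of those of TXNDC5. In GENCODE 44 no other gene overlaps the last 500 bases of PDIA4, PDIA5, ERP44, ERO1L or ERO1LB. The pseudogene PDIA3P1 matches bases 102 to 1615 of the PDIA3 transcript at 98.018% identity, outside its last 500 bases. Within the last 500 bases of TXNDC11, 157 bases align to ENSG00000230556 at 90.446% identity. That gene has no row among the counts, and its effect on TXNDC11 was not tested.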

How the data were processed

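RNA from untreated and tunicamycin-treated HepG2 cells was sequenced from mRNA 3′ ends (QuantSeq FWD). The authors ran the nf-core RNA-Seq pipeline 1.4.2 with its default settings on hg19 with Ensembl release 87 and deposited raw counts per gene, without normalization. The sources used here name no aligner, counter or strand setting beyond that. Columns were matched to samples by name.

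From the counts, filterByExpr (minimum count 2, minimum total 10) left 12733 genes, TMM scaled the libraries, and edgeR 4.0.16 (R 4.3.3) compared the conditions, with no other term, by its quasi-likelihood test and Benjamini-Hochberg adjustment at 0.05. Depth, from 2234682 counts, limits genes with few counts. Log2 ratios of pairs and of the oxidases used a pseudocount of 0.5. Alternatives were DESeq2 1.42.0, other scalings and filters, thinning, the replicate block and leaving out libraries. The series text places replicate experiments on separate days. That equal replicate numbers in the 2 groups mark the same day was assumed, and pairs of libraries rest on it. Deviations from group means correlated at 0.36, 0.0197, 0.0764, 0.162 and 0.137 over 9707 genes in pairs 1 to 5. P-values measure the spread between these experiments in a single cell line.

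Members, lists and rules were chosen with earlier results of these data known. Genes named are the set, the lists of relatives, redox enzymes and partners, overlapping genes and near copies, and cell type markers. HSPA5, DDIT3 and the 5 genes most like the set's mean are named too. Other genes with an ER stress element were named after their values were seen. Positions come from GENCODE 44 (GRCh38), matched by Ensembl identifier for all 10 genes; no hg19 coordinate is given. Transcript ends were compared by BLAST 2.17.0. PECAM1, protein sequences and other assays of the study were not analysed here.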

Additional observations from a re-analysis of the deposited data

Results flagged for a closer look

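QSOX2, which encodes a sulfhydryl oxidase of the secretory pathway, stood apart in tunicamycin replicate 4, at 157 normalized counts against 104 to 116 in the other treated libraries. Its gap to the nearest library passed Dixon's 95% critical value for 5 samples. It was the only such value among 84 groups of 5 libraries examined, and chance gives about 4.2. QSOX2 was not called in edgeR's quasi-likelihood test.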

How the results depend on the processing

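Every one of the 8 higher genes of the set kept its direction and its call, and ERO1L stayed without a call, in all 19 alternatives run for each. With the replicate block the log2 fold changes ran from 0.213 for ERO1L (adjusted p = 0.0541) to 2.45 for ERO1LB. Within the set and the 3 related lists, the paired fit in edgeR changed the calls of TMX1 and MTTP alone, and the one in DESeq2 that of TMX1 alone. Leaving out each library in turn gave ranges of 0.801 to 0.841 for P4HB, 0.9 to 1.1 for PDIA3, 2.37 to 2.51 for PDIA4, 0.63 to 0.884 for PDIA5, 1.49 to 1.66 for PDIA6, 1.78 to 2.06 for ERP44, 0.734 to 1.01 for TXNDC11, 0.135 to 0.241 for ERO1L and 2.35 to 2.55 for ERO1LB. The count of genes over 2-fold was 4 instead of 5 with library size only, with the block in edgeR or DESeq2, and without tunicamycin replicate 1 or 2, because PDIA3 lies at that line. Without untreated replicate 5, PDIA3 was also under it (0.934) and TXNDC11 over it (1.01). The relatives called lower were 1 instead of 2 with filterByExpr's default minimums, with a filter that ignores the groups and with libraries thinned to 2234682 counts. The first 2 settings left ERP27 out of the test, and the thinned value of ERP27 was -1.54 (adjusted p = 0.0608). TMX4 lost its call with library size only (0.297, adjusted p = 0.0675), and KDELR1 in 8 of 19 alternatives. TMX1 was called with no filter (adjusted p = 0.0396) and without untreated replicate 4 or 5 or tunicamycin replicate 1 (adjusted p from 0.0262 to 0.0376). The change in the ratio of ERO1LB to ERO1L was 2.06 with a pseudocount of 5, 2.42 thinned and 2.08 to 2.39 with libraries left out, and library scaling nearly cancels in it. Depth limits genes with few counts, such as ERP27 with 66 in all.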

Other observations

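The ER stress element, searched by its letters in all RefSeq promoter windows, was in windows of 25 genes, and 14 of these were tested. Of the 14, 11 were higher with tunicamycin and 1 was lower in edgeR's quasi-likelihood test, against 17.6% and 16.6% of all tested genes. Several are genes in which this element was first described, so the count is no independent evidence about the element. Besides PDIA6 and ERO1LB, the higher genes were HSPA5 (log2 fold change 2.97), HSP90B1 (2.72), CRELD2 (2.09), FICD (2.07), SERP1 (1.45), CALR (1.41), TRIM5 (1.10), EIF2A (0.70) and CANX (0.66). CRELD2 and FICD encode a folding factor and the enzyme that modifies BiP with AMP. XBP1, whose spliced mRNA encodes a transcription factor of the unfolded protein response, was the lower gene, at -1.01 (adjusted p = 6.91e-07). XBP1, CRELD2, FICD, SERP1, TRIM5 and EIF2A were named after their values were seen, and gene counts do not tell spliced from unspliced XBP1.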
